A study of Mus musculus with 12 samples.

Results

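The genes described here are 7 receptors and integrin chains listed for gut homing and epithelial retention: Itgae, Ccr9, Itga4, Itgb7, Itgb1, Itgal and Gpr15. They were chosen by name out of 22180 genes on the array, and each was read by the brightest transcript cluster that the platform annotation gives to that symbol alone. Every one of the 7 had just 1 such cluster. RNA was measured on 12 Affymetrix arrays in 4 groups of 3, replicates A to C, all from T cells of C57BL6-Foxp3-GFP mice, in which green fluorescent protein reports the regulatory T cell factor Foxp3. All wells held 200000 resting T cells with 20000 CD11c dendritic cells of the BALB/c strain, so the T cells were stimulated by foreign tissue antigens, and all received IL-2 at 5 ng/mL. CD8 Foxp3-positive cells were also given 5 ng/mL of TGF-β and 40 nM of retinoic acid over 4 days and were sorted as GFP-positive CD8 cells. CD8 control cells received only the IL-2 for 4 days and were sorted as GFP-negative. CD4 Foxp3-positive and CD4 control cells were made in the same ways with CD4 cells over 5 days. Cytokine treatment and Foxp3 sort changed together within a lineage, and lineage and culture time changed together between lineages, so neither pair can be told apart. Cells were pooled before the sort, and nothing in the labels says that replicates came from separate animals or cultures, so p-values here reflect no more than the scatter among these samples, possibly technical.

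T cells leave the blood in the gut through pairs of receptors and ligands. The integrin α4β7, made of the Itga4 and Itgb7 chains, binds MAdCAM-1 on gut vessels, while α4 paired with the Itgb1 chain binds VCAM-1 and fibronectin at other inflamed sites. CCR9 follows the chemokine CCL25 of the small intestine, and GPR15 guides T cells to the large intestine. Once inside, αEβ7, made of Itgae and Itgb7, binds E-cadherin on epithelial cells, whereas LFA-1, made of Itgal and Itgb2, binds ICAM molecules and serves adhesion in lymph nodes and to antigen-presenting cells. TGF-β is known to induce Itgae, and retinoic acid is known to induce Ccr9 and Itga4.

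Levels are log2 expression values as deposited, so a difference of 1 is a change of 2-fold, and they are given as mean ± SD over 3 arrays. A gene was called when its limma p-value, adjusted by Benjamini-Hochberg over all genes, was under 0.05. The 12 arrays had medians from 5.23 to 5.33, arrays of a group correlated at 0.9916 to 0.9945 across genes (which are not independent replicates), and no array went against its label. Foxp3 was at 12.45, 12.46 and 12.53 in CD8 Foxp3-positive cells against 5.41, 5.23 and 6.33 in CD8 controls, and CD4 Foxp3-positive arrays had 12.44, 12.39 and 12.49 against 5.68, 6.07 and 5.52 on CD4 control arrays. The T cell gene Cd3e stood above 12 on every array, Cd4 was high in the CD4 groups and Cd8b1 in the CD8 groups. In CD4 cells Cd3e rose by 0.30 ± 0.09 in Foxp3-positive cells relative to controls (limma adjusted p = 0.0292). Cd3d and Cd3g fell there, by -0.48 ± 0.11 and -0.37 ± 0.10 (adjusted p = 0.00572 and 0.0204). Of 8 T cell identity genes, 2 rose and 1 fell in CD8 cells (20.0% of all genes called). In CD4 cells 3 rose and 4 fell (22.5%). Within CD4 cells the CD8 genes moved too. Cd8b1 was at 6.02, 6.05 and 6.45 on CD4 Foxp3-positive arrays and at 7.62, 8.02 and 7.53 on CD4 control arrays (log2 fold change -1.55 ± 0.14, limma adjusted p = 2.81e-06). Cd8a changed by 1.03 ± 0.30 (adjusted p = 0.0273), a call that ended when replicate C of the CD4 controls (0.64, adjusted p = 0.0967) or of the CD4 Foxp3-positive arrays (0.72, adjusted p = 0.107) was left out. The call also ended with trend and robust estimates (adjusted p = 0.0539) and with only the CD4 groups fitted (adjusted p = 0.0987). The part of Cd8a and Cd8b1 in the CD4 changes given here was not tested. Since no measure of background was at hand, folds against levels near 5.60, the median of all genes' means, are ratios of array signal.

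In CD8 cells 3 of the 7 genes rose (Itgae, Ccr9 and Itgb7) and 2 fell (Itgb1 and Itgal) in Foxp3-positive cells relative to controls, while Itga4 and Gpr15 did not pass. Among all genes 20.0% were called in this comparison, 9.39% higher and 10.6% lower. In CD4 cells 4 rose (Itgae, Ccr9, Itga4 and Gpr15) and 1 fell (Itgal), while Itgb7 and Itgb1 did not pass, where 22.5% of all genes were called, 12.1% higher and 10.4% lower. The median log2 change of the 7 genes was 0.40 in CD8 and 1.24 in CD4 cells, beside -0.018 and 0.003 for all genes. All arrays of both groups stood apart for each called gene, 3 with higher and 2 with lower arrays in CD8 cells (15.5% and 18.0% of all genes) and 4 with higher and 1 with lower arrays in CD4 cells (20.2% and 17.6%).

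**Figure D1:**
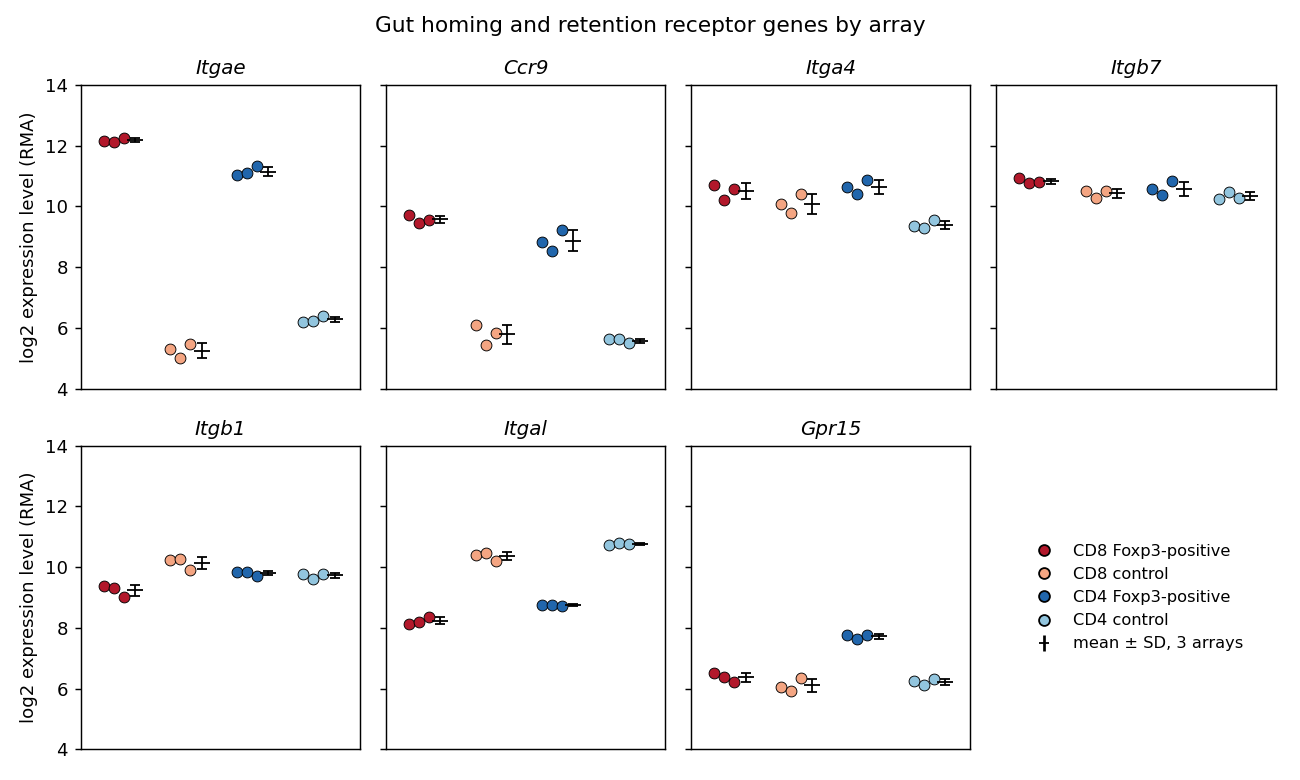
Log2 expression level (vertical axis) of each gene on each array, with 1 dot per array in columns for CD8 Foxp3-positive, CD8 control, CD4 Foxp3-positive and CD4 control cells, and the mean ± SD of 3 arrays beside them. Itgae and Ccr9 are high in both Foxp3-positive groups, Itgal is low in both, and Gpr15 is high in CD4 Foxp3-positive cells alone, with no overlap of its arrays with any other group.

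Among the receptors that hold cells at epithelium, Itgae, which encodes the αE chain CD103, changed most. It was at 12.16, 12.12 and 12.26 in CD8 Foxp3-positive cells, against 5.31, 5.00 and 5.46 in CD8 controls. It was at 11.03, 11.09 and 11.34 on CD4 Foxp3-positive arrays, against 6.21, 6.24 and 6.38 on CD4 control arrays. The 4 groups did not overlap, in the order CD8 Foxp3-positive, CD4 Foxp3-positive, CD4 control, CD8 control. The CD8 rise of 122-fold (log2 fold change 6.93 ± 0.12 SE, limma adjusted p = 3.83e-12) had rank 1 among the rises of all 22180 genes, ahead of Foxp3 itself at rank 2. In CD4 cells the rise was 29.3-fold (4.87 ± 0.12, adjusted p = 5.18e-11), at rank 7.

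The larger rise in CD8 cells was itself past the threshold. The difference between the lineages' changes, CD8 minus CD4, was 2.05 ± 0.17 on the log2 scale (limma adjusted p = 1.12e-05). It was made up in like parts of a level 1.03 ± 0.12 higher in CD8 than in CD4 Foxp3-positive cells (adjusted p = 0.000334) and a level 1.02 lower in CD8 than in CD4 controls (log2 difference -1.02 ± 0.12, adjusted p = 6.45e-05). The 3 Itgae arrays of CD8 controls, at or below 5.46, lay under the median level of all genes, and those of CD4 controls above it. In bulk samples, fewer cells carrying the transcript and less transcript per cell cannot be told apart.

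Itgb7, the β7 chain that both gut integrins share, moved little. It was at 10.92, 10.76 and 10.81 in CD8 Foxp3-positive cells and at 10.50, 10.28 and 10.52 in CD8 controls, a rise of 1.32-fold (log2 fold change 0.40 ± 0.12, limma adjusted p = 0.0368). That call was lost when any of 5 of the 6 CD8 arrays was left out, all but CD8 control replicate C, with adjusted p from 0.0576 to 0.144. CD4 Foxp3-positive cells had 10.59, 10.37 and 10.83 and CD4 controls 10.24, 10.48 and 10.28, which overlapped (log2 fold change 0.26 ± 0.12, adjusted p = 0.156). Neighbours in the order of its 4 levels, CD8 Foxp3-positive, CD4 Foxp3-positive, CD8 control and CD4 control, all overlapped. The change in CD8 minus that in CD4 cells was 0.13, with an interval of -0.24 to 0.51 (95%, unadjusted).

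**Figure D2:**
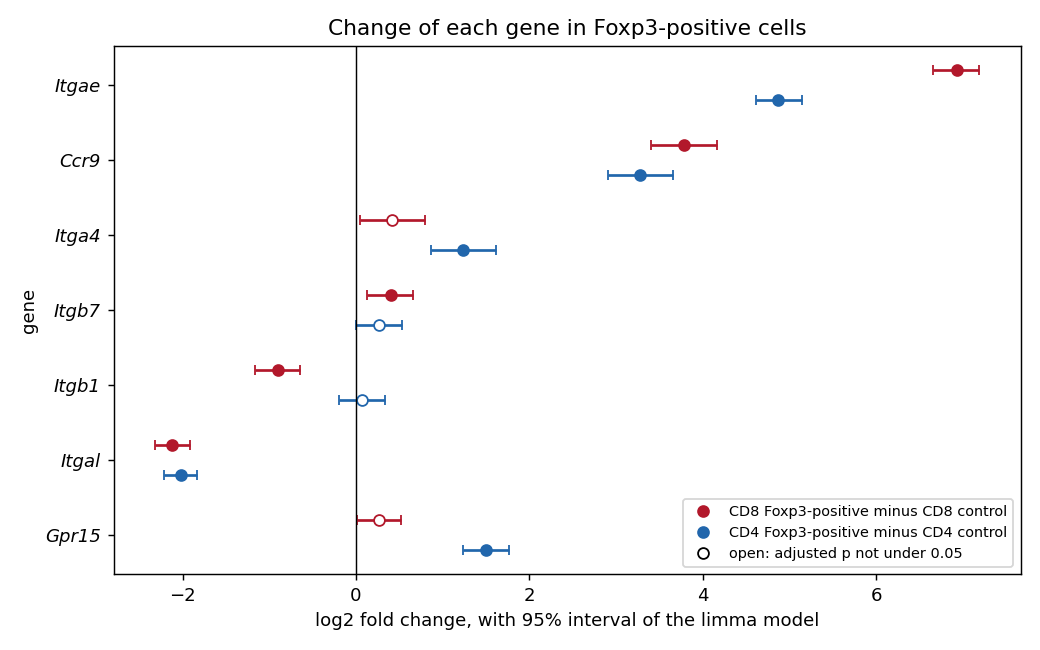
Log2 fold change of each gene (horizontal axis) in Foxp3-positive minus control cells, CD8 above CD4 for each gene, with 95% intervals of the limma model, unadjusted. Open circles mark changes whose adjusted p was not under 0.05. Itgae, Ccr9 and Itgal moved the same way in both lineages, Itga4 and Gpr15 were called in CD4 cells alone, and Itgb7 and Itgb1 in CD8 cells alone.

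Of the receptors that draw cells toward the intestine, Ccr9 rose in both lineages and Gpr15 in CD4 cells. Ccr9 was at 9.71, 9.46 and 9.56 in CD8 Foxp3-positive cells, against 6.09, 5.45 and 5.84 in CD8 controls. In CD4 Foxp3-positive cells it was at 8.83, 8.54 and 9.23, against 5.62, 5.62 and 5.50 in CD4 controls. The Foxp3-positive arrays of each lineage were all far above the controls, and the controls of both lineages overlapped. The rises were 13.8-fold in CD8 cells (log2 fold change 3.78 ± 0.17, limma adjusted p = 1.37e-08, rank 26 of all genes) and 9.75-fold in CD4 cells (3.28 ± 0.17, adjusted p = 3.1e-08, rank 28).

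The Ccr9 changes of the lineages differed by 0.50, with an unadjusted 95% interval of -0.04 to 1.03 (limma adjusted p = 0.229). Between the Foxp3-positive groups Ccr9 was 1.64-fold higher in CD8 than in CD4 cells, with no overlap of arrays (log2 difference 0.71 ± 0.17, adjusted p = 0.0362). That call was lost without any one CD8 Foxp3-positive array and without CD4 Foxp3-positive replicate A or B, with adjusted p from 0.0689 to 0.146.

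Gpr15 was at 6.51, 6.38 and 6.22 in CD8 Foxp3-positive cells, against 6.07, 5.91 and 6.34 in CD8 controls, which overlapped. CD4 Foxp3-positive cells had 7.78, 7.63 and 7.77, against 6.26, 6.12 and 6.31 in CD4 controls. The CD4 Foxp3-positive arrays were above those of every other group, and the other 3 groups overlapped as neighbours in order of level. The CD4 rise was 2.83-fold (log2 fold change 1.50 ± 0.12, limma adjusted p = 9.83e-07). The CD8 change was 0.26 ± 0.12 (adjusted p = 0.156), and it passed only without CD8 control replicate C (0.38, adjusted p = 0.0316). The 2 changes differed by -1.24 ± 0.17, CD8 minus CD4 (adjusted p = 0.000381). Between the Foxp3-positive groups Gpr15 was 2.56-fold lower in CD8 than in CD4 cells (log2 difference -1.36 ± 0.12, adjusted p = 3.04e-05), at rank 36 among the genes lower in CD8.

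The promoters of Ccr9, Itga4 and Gpr15, the homing genes that rose in CD4 cells and have an entry in the RefSeq promoter table, are printed to show what sequence lies at their starts. Each runs 5′ to 3′ from 250 bases before to 50 bases after the gene's start in build GRCm38.p6, and capitals mark any match to a motif searched on both strands.
Ccr9 (chr9:123766961-123767260, plus strand): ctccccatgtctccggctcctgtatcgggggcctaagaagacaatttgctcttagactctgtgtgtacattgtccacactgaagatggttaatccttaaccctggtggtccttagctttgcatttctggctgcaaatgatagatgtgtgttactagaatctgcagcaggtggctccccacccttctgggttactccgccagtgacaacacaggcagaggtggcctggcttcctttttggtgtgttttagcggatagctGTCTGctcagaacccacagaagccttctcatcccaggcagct
Itga4 (chr2:79255176-79255475, plus strand): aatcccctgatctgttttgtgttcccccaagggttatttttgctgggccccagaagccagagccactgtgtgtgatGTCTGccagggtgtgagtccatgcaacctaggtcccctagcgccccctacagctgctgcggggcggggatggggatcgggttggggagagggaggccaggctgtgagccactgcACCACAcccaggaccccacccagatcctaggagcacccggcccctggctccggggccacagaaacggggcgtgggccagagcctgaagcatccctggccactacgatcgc
Gpr15 (chr16:58718823-58719122, minus strand): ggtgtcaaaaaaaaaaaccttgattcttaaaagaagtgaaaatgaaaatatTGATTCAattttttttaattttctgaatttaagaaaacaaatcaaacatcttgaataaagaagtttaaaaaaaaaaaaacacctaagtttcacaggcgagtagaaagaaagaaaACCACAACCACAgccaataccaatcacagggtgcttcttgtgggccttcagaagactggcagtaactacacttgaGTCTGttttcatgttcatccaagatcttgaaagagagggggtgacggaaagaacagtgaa
The motifs were CAGAC, the core bound by Smad factors that act for TGF-β, AGGTCA, a half-site of retinoic acid receptors, TGTGGT, a core bound by Runx factors, and TGANTCA, the AP-1 site that BATF complexes use. No matches of different motifs overlapped.

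Of the 7 genes 5 matched the table by symbol, the printed 3 with Itgb7 and Itgb1, and Itgae and Itgal did not. CAGAC was found in 5 of the 5 windows, and in 49.6% of all 32851 promoters of the same length. It had 3 matches in Itgb1, 2 in Itgb7 and 1 each in Ccr9, Itga4 and Gpr15. AGGTCA was found in 0 of the 5 and in 16.3% of all promoters. TGTGGT stood in 2, those of Itga4 and Gpr15 (16.8% of all), with a pair of adjacent matches in Gpr15, and TGANTCA in that of Gpr15 (7.81% of all). A match is a description of the letters and not a site of binding.

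Of the α4 integrin chains, Itga4 rose in CD4 cells. CD4 Foxp3-positive cells had 10.64, 10.42 and 10.88, against 9.36, 9.30 and 9.54 in CD4 controls, with no overlap (2.37-fold, log2 fold change 1.24 ± 0.17, limma adjusted p = 0.000165). CD8 Foxp3-positive cells had 10.72, 10.22 and 10.58 and CD8 controls 10.07, 9.77 and 10.42, which overlapped (0.42 ± 0.17, adjusted p = 0.121). Without CD8 control replicate C the Itga4 change in CD8 cells passed (0.59, adjusted p = 0.0305). It also passed with replicate letters as a block (adjusted p = 0.0222), and over the alternatives it lay between 0.26 and 0.59. Both Foxp3-positive groups also overlapped each other, while CD8 controls stood 1.61-fold above CD4 controls (log2 difference 0.69 ± 0.17, adjusted p = 0.0131). The change in CD8 minus that in CD4 cells was -0.82 ± 0.25 (adjusted p = 0.0442). The Itga4 call for this difference between lineages did not hold with 9 of the 12 single arrays left out, all but CD8 control replicate B, CD8 Foxp3-positive replicate A and CD4 Foxp3-positive replicate B, with adjusted p from 0.0523 to 0.0997. The control difference was lost without CD8 control replicate C or CD4 control replicate B (adjusted p = 0.0538 and 0.0525). A second cluster, which the annotation gives to Itga4 and its neighbour Cerkl together and which was not tested as a gene, was at 6.48 ± 0.16 in CD8 Foxp3-positive and 6.12 ± 0.16 in CD8 control cells, and at 6.42 ± 0.11 in CD4 Foxp3-positive and 5.91 ± 0.10 in CD4 control cells (SD, n = 3).

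Itgb1, the β1 chain that pairs with α4 outside the gut axis, fell in CD8 cells. It was at 9.38, 9.31 and 9.03 in CD8 Foxp3-positive cells, against 10.23, 10.28 and 9.91 in CD8 controls, with no overlap. The fall was 1.87-fold (log2 fold change -0.90 ± 0.12, limma adjusted p = 0.000131). CD4 Foxp3-positive cells had 9.85, 9.83 and 9.71, and CD4 controls 9.79, 9.62 and 9.77, which overlapped (0.07 ± 0.12, adjusted p = 0.743). CD8 controls were thus the highest group and CD8 Foxp3-positive cells the lowest, with the CD4 groups between them and apart from both. The changes differed by -0.97 ± 0.17, CD8 minus CD4 (adjusted p = 0.00226). Among Foxp3-positive cells the CD8 level was 1.47-fold lower than the CD4 level (log2 difference -0.56 ± 0.12, adjusted p = 0.0171), a call lost without CD8 Foxp3-positive replicate C or CD4 Foxp3-positive replicate A or B (adjusted p from 0.0631 to 0.0759). Among controls it was 1.33-fold higher in CD8 (0.41 ± 0.12, adjusted p = 0.0256), a call lost without CD8 control replicate A or B or CD4 control replicate B or C (adjusted p from 0.0512 to 0.103).

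Itgal, the αL chain (CD11a) of LFA-1, fell in both lineages. CD8 Foxp3-positive cells had 8.13, 8.21 and 8.36, against 10.39, 10.46 and 10.21 in CD8 controls. CD4 Foxp3-positive cells had 8.76, 8.76 and 8.72, against 10.74, 10.81 and 10.76 in CD4 controls. The 4 groups did not overlap, in the order CD4 control, CD8 control, CD4 Foxp3-positive, CD8 Foxp3-positive. The falls were 4.34-fold in CD8 cells (log2 fold change -2.12 ± 0.09, limma adjusted p = 8.15e-09, rank 47 among the falls) and 4.06-fold in CD4 cells (-2.02 ± 0.09, adjusted p = 6.73e-09, rank 170). They differed by -0.10, with an unadjusted 95% interval of -0.37 to 0.18. CD8 cells had the lower level in both states, by -0.51 ± 0.09 among Foxp3-positive cells (adjusted p = 0.00523) and by -0.41 ± 0.09 among controls (adjusted p = 0.00542).

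The partner of Itgal in LFA-1 was not called in either lineage. Itgb2, which encodes the β2 chain CD18 that all leukocyte β2 integrins share, was at 11.83, 11.95 and 11.98 in CD8 Foxp3-positive cells and at 11.85, 11.82 and 11.90 in CD8 controls. In CD4 cells it was at 12.11, 12.20 and 12.06 in Foxp3-positive cells and at 11.87, 11.94 and 12.00 in controls. Its log2 changes were 0.07 ± 0.08 (limma adjusted p = 0.682) in CD8 and 0.19 ± 0.08 (adjusted p = 0.126) in CD4 cells, and the CD4 value passed, as a rise, after quantile normalization was run again (0.29, adjusted p = 0.0224) and with trend and robust estimates (adjusted p = 0.0266).

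Differences between chains were taken within each array. A constant difference in probe brightness cancels when groups are compared. A change in the difference between chains then shows unequal change of their array signal. Signal not proportional to RNA at low or high levels would not cancel, and this was not tested. With 3 arrays against 3, the exact two-sided permutation test cannot go below p = 0.1. Itgal minus Itgb2 changed by -2.18 in CD8 and by -2.21 in CD4 cells (exact p = 0.1 each), and no arrays overlapped. Itgae minus Itgb7 changed by 6.53 in CD8 and 4.61 in CD4 cells (exact p = 0.1 each), again with no overlap.

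The balance of β7 and β1, the chains that compete for α4, shifted in CD8 cells by 1.30 on the log2 scale toward Itgb7 (exact permutation p = 0.1). The difference Itgb7 minus Itgb1 was 1.59 ± 0.17 in CD8 Foxp3-positive and 0.29 ± 0.31 in CD8 control cells, with no overlap. In CD4 cells it was 0.80 ± 0.29 in Foxp3-positive and 0.61 ± 0.22 in control cells, which overlapped (change 0.19, exact permutation p = 0.5, SD over n = 3). These differences hold no statement on which chain had more RNA, since probes differ in brightness.

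**Figure D3:**
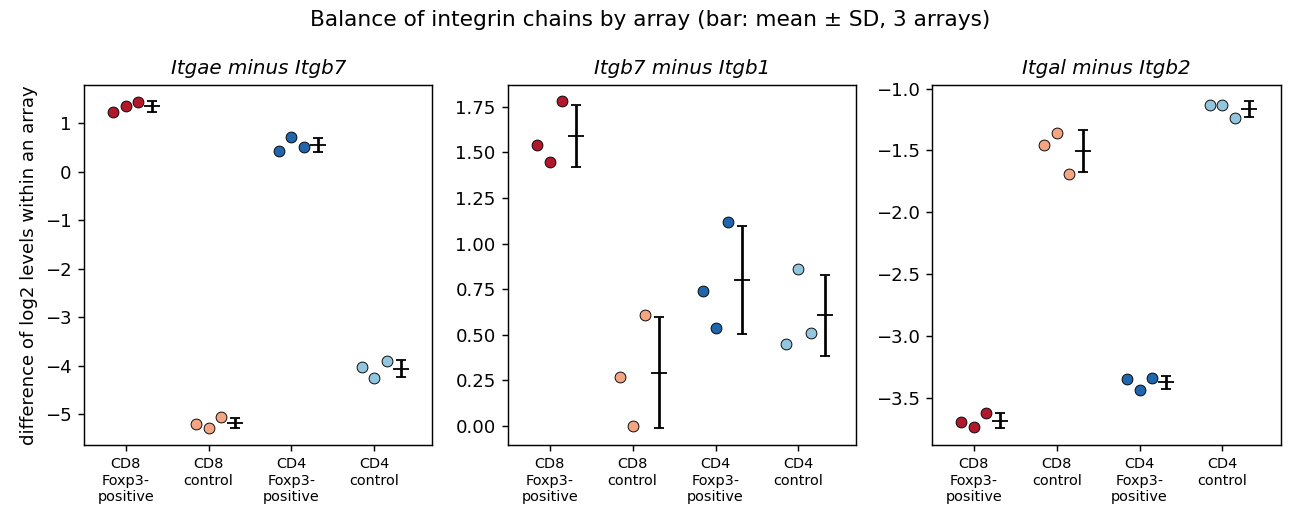
Difference of the log2 levels of 2 integrin chains within each array (vertical axis), 1 dot per array and mean ± SD of 3 arrays, for CD8 Foxp3-positive, CD8 control, CD4 Foxp3-positive and CD4 control cells. Itgae rose over Itgb7 and Itgal fell below Itgb2 in both lineages, while Itgb7 minus Itgb1 separated Foxp3-positive from control arrays in CD8 cells alone. The vertical position within a panel depends on the probes, so only distances between groups can be read.

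Across the lineages, 4 of the 7 genes changed by different amounts in CD8 and CD4 cells (13.5% of all genes were called for this difference), with 1 higher value in CD8, that of Itgae (6.01% of all genes), and 3 lower, those of Itga4, Itgb1 and Gpr15 (7.48%). Compared directly, CD8 Foxp3-positive cells differed from CD4 Foxp3-positive cells in 5 of the 7 (4.71% of all genes), with Itgae and Ccr9 higher (2.41%) and Itgb1, Itgal and Gpr15 lower in CD8 (2.30%). The arrays of these 5 genes did not overlap either, which held for 11.3% of all genes with higher and 11.4% with lower CD8 arrays. CD8 controls differed from CD4 controls in 4 (20.9% of all genes), with Itga4 and Itgb1 higher (12.1%) and Itgae and Itgal lower in CD8 (8.76%), again without overlap (18.3% and 15.4% of all genes). These comparisons share arrays with one another and with the Foxp3-positive against control comparisons.

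For the 5 genes whose group means spanned at least 1 on the log2 scale, similar genes were looked up among 1707 others. Similar here means a high Pearson correlation over the 12 arrays, whatever the level or the size of the change. These Pearson correlations are a description, and include the differences between the 4 groups. Itgae was closest to Dok1 (r = 0.996), an adaptor that restrains receptor signals, to Skil (0.993), a Smad corepressor induced by TGF-β, and to Acsbg1 (0.992), which activates fatty acids. Ccr9 was closest to Saraf (0.989), a regulator of calcium entry, then to Hepacam2 and Diaph2 (0.987 each). Itga4 had Fam102b (0.959), Cpm (0.946) and Wls (0.944), Itgal had Chd7 (0.993), Clic4 (0.992) and Dusp5 (0.982), and Gpr15 had Stab1 (0.974), Bach2 (0.967) and Cdhr3 (0.966). Bach2, a repressor that restrains effector T cell genes, was at 8.32 in CD8 Foxp3-positive and 7.90 in CD8 control cells, and at 9.20 in CD4 Foxp3-positive and 8.24 in CD4 control cells.

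Beside the counts for related lists stand the shares of all genes called, 20.0% in CD8 and 22.5% in CD4 cells. Of 7 measured ligands of these receptors, 1 was called in each lineage, the same gene. Cdh1, which encodes E-cadherin, the ligand of αEβ7, was at 9.87, 10.08 and 10.08 in CD8 Foxp3-positive cells, against 6.25, 5.96 and 5.83 in CD8 controls. In CD4 Foxp3-positive cells it was at 8.76, 8.94 and 8.70, against 6.29, 6.65 and 6.08 in CD4 controls. It rose 16.0-fold in CD8 cells (log2 fold change 4.00 ± 0.15, limma adjusted p = 2.59e-09) and 5.50-fold in CD4 cells (2.46 ± 0.15, adjusted p = 9.49e-08), and the rises differed by 1.54 ± 0.21 (adjusted p = 0.000395). With all clusters of Cdh1 averaged, the log2 changes were 2.88 in CD8 and 1.87 in CD4 cells and differed by 1.01, all still called. Cdh1 thus rose with its receptor chain in the same sorted cells, and by more in CD8 cells, as Itgae did. Icam1, the brightest ligand that passed in neither lineage, was at 8.09 ± 0.02 in CD8 Foxp3-positive and 8.06 ± 0.20 in CD8 control cells, and at 8.10 ± 0.16 in CD4 Foxp3-positive and 8.38 ± 0.06 in CD4 control cells.

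Among 22 other integrin chains, 4 rose and 3 fell in CD8 cells and 4 rose and 6 fell in CD4 cells, with medians of -0.18 and -0.12 (20.0% and 22.5% of all genes called). Itgb3, the β3 chain that pairs with αV to bind vitronectin, was at 7.14, 6.56 and 6.50 in CD8 Foxp3-positive cells, against 9.45, 9.13 and 9.75 in CD8 controls, and fell 6.53-fold (log2 fold change -2.71 ± 0.32, limma adjusted p = 4.36e-05). In CD4 cells it was at 6.97, 6.28 and 7.91 in Foxp3-positive cells, against 11.38, 11.44 and 11.37 in controls, and fell 20.3-fold (-4.35 ± 0.32, adjusted p = 4.94e-07). Itga6, a laminin-binding chain, rose 1.79-fold in CD8 and 4.68-fold in CD4 cells (changes of 0.84 ± 0.14 and 2.23 ± 0.14). Itga2, a collagen-binding chain, fell 4.23-fold in CD4 cells and did not pass in CD8 cells (-0.34 ± 0.22, adjusted p = 0.353). Itgav, which lies outside the naming rule and was chosen after its values were seen, fell by 1.15 ± 0.09 in CD4 cells and changed by 0.39 ± 0.09 in CD8 cells (adjusted p = 7.17e-07 and 0.00568). The CD8 call was lost when all clusters of the gene were averaged (0.28, adjusted p = 0.0848).

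**Figure D4:**
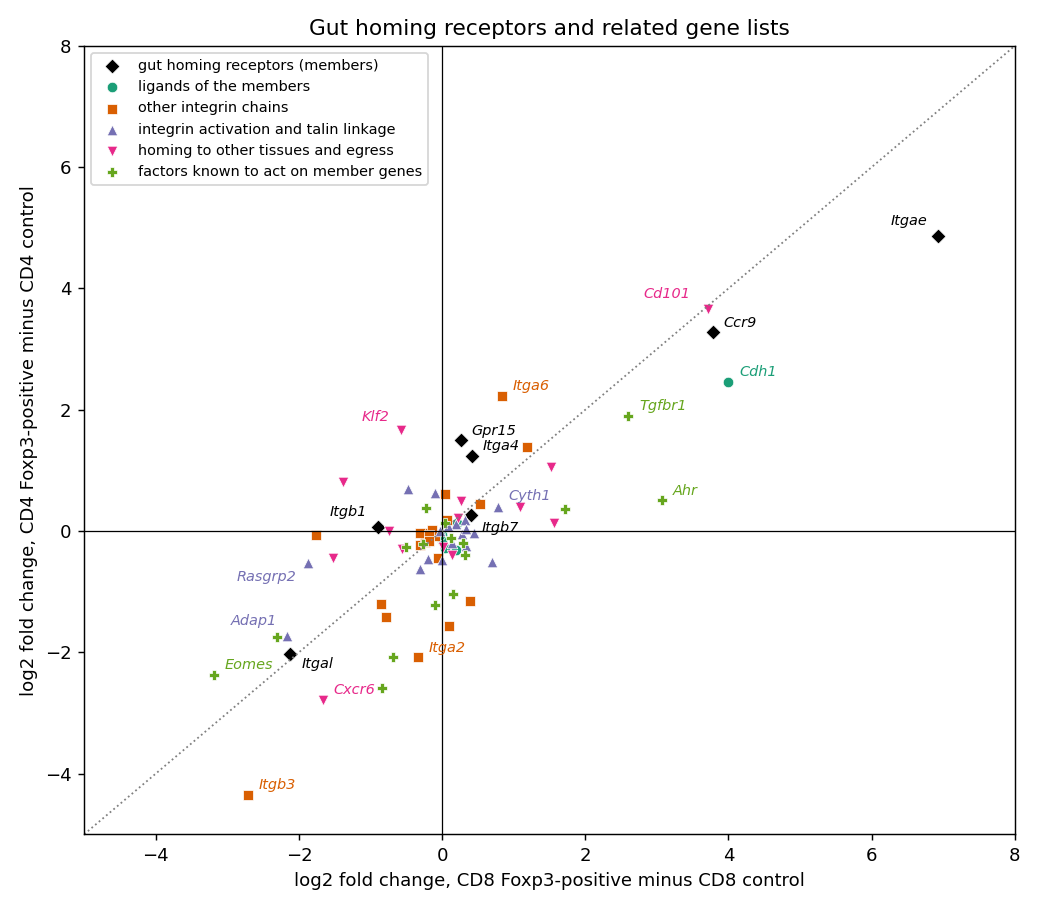
Log2 fold change in CD8 cells (horizontal axis) against that in CD4 cells (vertical axis), Foxp3-positive minus control in each, for the 7 gut receptor genes (diamonds, shown as members) and 5 lists of related genes (other marks). The dotted line marks equal changes. Itgae and Cdh1 lie below it at the upper right, Gpr15, Itga4, Itga6 and Klf2 above it, and Itgb3 lies lowest on the vertical axis.

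Of 14 measured genes for homing to other tissues and for leaving them, 4 rose and 6 fell in CD8 cells, and 4 rose and 1 fell in CD4 cells, with medians of 0.07 and 0.17 (20.0% and 22.5% of all genes called). Cd101, a surface protein of tissue-resident and regulatory T cells, rose 13.2-fold in CD8 and 12.6-fold in CD4 cells (log2 fold changes 3.72 ± 0.10 and 3.66 ± 0.10), and Cxcr6, a receptor of tissue effector cells, fell 3.18-fold and 6.86-fold. Klf2, a factor that maintains exit receptors, was at 9.16, 9.19 and 9.26 on CD4 Foxp3-positive arrays, against 7.62, 7.50 and 7.52 on CD4 control arrays, and rose 3.15-fold (limma adjusted p = 1.15e-05). In CD8 cells it was at 8.35, 7.60 and 8.18 in Foxp3-positive cells and at 8.86, 8.35 and 8.67 in controls (-0.58 ± 0.17, adjusted p = 0.0291), which overlapped. Leaving out CD8 control replicate A, CD8 control replicate C or CD8 Foxp3-positive replicate B ended that CD8 call, with adjusted p of 0.126, 0.0738 and 0.102, and without the last array the change of Klf2 was -0.36. Fitting only the CD8 groups also ended the call (adjusted p = 0.092). S1pr1, the exit receptor that Klf2 maintains, chosen after its values were seen, fell 2.60-fold in CD8 and rose 1.75-fold in CD4 cells (log2 fold changes -1.38 ± 0.19 and 0.81 ± 0.19, adjusted p = 0.000153 and 0.00679). Ccr7, of the same list and likewise chosen after its values were seen, rose in both lineages. Its log2 fold changes were 1.52 in CD8 and 1.06 in CD4 cells (adjusted p = 7.39e-05 and 0.00111), and they differed by 0.46 (adjusted p = 0.313). Selplg, the selectin ligand PSGL-1 and the brightest of this list that passed in neither lineage, changed by 0.22 ± 0.08 in CD8 and 0.21 ± 0.08 in CD4 cells (adjusted p = 0.0715 and 0.0773), close to the threshold and past it under 4 alternatives in each lineage. The changes in CD8 minus CD4 cells were -2.24 ± 0.24 for Klf2 and -2.19 ± 0.26 for S1pr1 (adjusted p = 7.34e-05 and 0.000169).

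Of 18 measured genes listed for integrin activation and talin linkage, not all of them activators, 6 rose and 4 fell in CD8 cells. In CD4 cells 3 rose and 6 fell, with medians of 0.11 in CD8 and -0.04 in CD4 cells (20.0% and 22.5% of all genes called). Rasgrp2, the exchange factor that switches on Rap1 ahead of integrin activation, fell 3.69-fold in CD8 cells (log2 fold change -1.88 ± 0.16, limma adjusted p = 2.16e-06). In CD4 cells it fell 1.44-fold (adjusted p = 0.0264), a call lost without CD4 control replicate A or B or CD4 Foxp3-positive replicate A or B (adjusted p from 0.0608 to 0.116). Adap1, an Arf GTPase regulator, fell 4.48-fold and 3.33-fold, and Cyth1, a β2 integrin-binding exchange factor, rose 1.72-fold and 1.32-fold in CD8 and CD4 cells. Dock2, a Rac activator of moving lymphocytes, did not pass (0.08 ± 0.09 in each, adjusted p = 0.639 and 0.551).

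Of 16 measured factors known to act on these genes, 3 rose and 5 fell in CD8 cells and 3 rose and 7 fell in CD4 cells, with medians of -0.03 and -0.24 (20.0% and 22.5% of all genes called). Tgfbr1, a receptor chain for TGF-β, rose 6.07-fold in CD8 and 3.73-fold in CD4 cells. Ahr, a ligand-activated factor that acts on Gpr15, was at 9.34, 9.22 and 9.14 in CD8 Foxp3-positive cells, against 6.53, 5.67 and 6.29 in CD8 controls (8.42-fold higher, limma adjusted p = 1.13e-07). In CD4 cells Ahr was at 8.66, 8.54 and 8.94 in Foxp3-positive and 8.32, 8.21 and 8.06 in control cells (0.51 ± 0.18, adjusted p = 0.0617), with no overlap. This Ahr change lay close to the threshold and passed under 5 of 14 alternatives, with adjusted p from 0.0243 to 0.191 over the 14. It passed with genes under the median level left out (adjusted p = 0.0314) or array medians subtracted (0.0413). It also passed with trend and robust estimates (0.0408), only the CD4 groups fitted (0.0243) or replicate letters as a block (0.0486). Runx3, a CD8 lineage factor that acts on Itgae and was chosen after its values were seen, changed by 0.15 ± 0.17 in CD8 cells and fell by 1.03 ± 0.17 in CD4 cells (adjusted p = 0.661 and 0.000693). Eomes, a factor of cytotoxic cells, fell 9.11-fold in CD8 and 5.18-fold in CD4 cells, and Smad4 did not pass (adjusted p = 0.79 and 0.29).

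Markers of other cells were set beside these results, since dendritic cells were in the wells and some also carry CD103. The mean level of 18 dendritic cell markers ranged over the arrays from 6.35 to 6.51 in CD8 Foxp3-positive and 6.45 to 6.51 in CD8 control cells, and from 6.45 to 6.60 in CD4 Foxp3-positive and 6.51 to 6.54 in CD4 control cells. In CD8 cells 4 of them rose (Cd40, Irf8, Cd86 and Cst3) and 3 fell (Itgax, Ly75 and Batf3), and in CD4 cells 3 rose (Cd40, Irf8 and Cd83) and 3 fell (Batf3, H2-Ab1 and Ly75). Cd40 rose 2.27-fold in CD8 and 4.53-fold in CD4 cells, and Irf8 1.86-fold and 1.93-fold. Cd86 rose 1.54-fold in CD8 cells. Itgax fell 3.39-fold in CD8 cells, and Ly75 fell 3.17-fold in CD8 and 1.99-fold in CD4 cells. Among the markers called in neither lineage, Flt3, Zbtb46 and Xcr1 were at 4.79, 5.32 and 4.77 in CD8 Foxp3-positive cells. CD8 controls had 4.88, 5.27 and 4.84. CD4 Foxp3-positive arrays averaged 4.85, 5.40 and 4.93, against averages of 4.97, 5.49 and 5.08 on CD4 control arrays. Mean levels of 5 NK and γδ T cell markers were higher in the Foxp3-positive groups. They ran from 6.17 to 6.32 in CD8 Foxp3-positive against 5.27 to 5.77 in CD8 control arrays. In CD4 cells they ran from 5.95 to 6.08 in Foxp3-positive against 4.88 to 5.24 in control arrays. Of these markers, Klri2 and Kit rose in both lineages. Ncr1, called in neither, was at 4.67 in CD8 Foxp3-positive against 4.87 in CD8 control cells. It was at 4.88 in CD4 Foxp3-positive against 4.90 in CD4 control cells. Of the dendritic cell list, Cd209a stood between 9.13 and 9.74 on all arrays. Other bright markers of that list were H2-Ab1, between 8.28 and 10.32, Irf8, between 8.27 and 9.62, and Cst3, between 8.06 and 8.65. The 13 macrophage and monocyte markers averaged 5.19 to 5.61 in CD8 Foxp3-positive against 5.19 to 5.28 in CD8 control arrays and 5.09 to 5.40 in CD4 Foxp3-positive against 5.23 to 5.35 in CD4 control arrays, with 3 higher (Lyz2, C1qb and Apoe) and 1 lower (Cd68) in CD8 cells and 1 higher (Lyz2) and 1 lower (Cd68) in CD4 cells. Lyz2, lysozyme of myeloid cells, was at 5.56, 6.61 and 6.94 on CD8 Foxp3-positive arrays against 4.32, 4.94 and 4.37 on CD8 control arrays, and rose 3.54-fold (limma adjusted p = 0.000536). It was at 5.79, 5.47 and 5.29 on CD4 Foxp3-positive arrays against 4.23, 4.52 and 4.62 on CD4 control arrays, and rose 2.08-fold (adjusted p = 0.0184). Csf1r, called in neither lineage, was at 5.08 in CD8 Foxp3-positive against 4.84 in CD8 control cells. It was at 4.88 in CD4 Foxp3-positive against 4.93 in CD4 control cells. The 11 B cell markers averaged between 4.77 and 4.99 on all arrays, with 2 higher (Cd79a and Cd79b) in CD8 cells and 1 higher (Cd79b) and 2 lower (Ebf1 and Cd22) in CD4 cells. The part of these markers in the rises of Itgae and Ccr9 was not tested.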

How the data were processed

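The values the authors deposited are log2 expression levels, 1 per array for each transcript cluster. The submitters' processing notes name RMA and Affymetrix Expression Console for them, and 250 ng of RNA went into each labelling, per the labels' protocols. The genome build is not given in the sources used here, nor are the annotation and tool versions behind the values.

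Of 34365 clusters, 23521 had 1 gene symbol in the platform annotation, and the brightest cluster over the 12 arrays stood for each of 22180 genes, with no filter on level. All arrays entered a linear model with 4 group means (limma 3.58.1 under R 4.3.3, functions lmFit and eBayes, 8 residual degrees of freedom, prior 4.56), with two-sided tests of 5 comparisons adjusted by Benjamini-Hochberg over all genes. Intervals are of 95% and unadjusted. Differences of integrin chains were compared with exact permutation tests over arrays. The model was tested on simulated data.

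The genes, the related lists and the alternatives were chosen with earlier results of these data known, so no count or test over them is independent support. From each related list the text names the 3 largest called changes in either lineage and the brightest gene called in neither, besides genes marked as chosen after their values were seen. Similar genes were ranked by Pearson correlation over the arrays, among named genes with a group mean at or above the median level and group means spanning at least 1, passing over predicted genes and small RNAs. Listed genes without a cluster of their own were not analysed here. Probes of members of gene families can read near copies. No batch is given in the labels. The number of arrays limits the precision.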

Additional observations from a re-analysis of the deposited data

Results flagged for a closer look

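The change from control to Foxp3-positive cells differed between the lineages for 4 of the 7 genes. The test was of the difference itself (limma interaction, CD8 minus CD4). For Itgae the difference was 2.05 on the log2 scale, with 3 of 3 CD8 Foxp3-positive arrays above and 3 of 3 CD8 control arrays below all CD4 arrays of the same state. For Gpr15 it was -1.24, with a difference of -1.36 ± 0.12 between the Foxp3-positive groups and of -0.12 ± 0.12 between the controls. For Itgb1 it was -0.97, made of -0.56 ± 0.12 between the Foxp3-positive groups and 0.41 ± 0.12 between the controls. For Itga4 it was -0.82, with -0.14 ± 0.17 between the Foxp3-positive groups and 0.69 ± 0.17 between the controls, and its adjusted p of 0.0442 lay close to the threshold. Groups of 3 arrays are too small for a test of single outlying arrays.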

How the results depend on the processing

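The 7 genes in 5 comparisons were refitted under up to 19 alternatives each, which averaged all clusters of a gene, tested only genes at or above the median level or all clusters of the table, subtracted array medians, normalized by quantiles again, used trend and robust estimates, used only the groups compared, used replicate letters as a block, or left out 1 array. Of these refits 487 kept direction and call, 34 lost a call, 3 gained one and 1 changed sign without a call (Itga4 between the Foxp3-positive groups). Averaging clusters could not alter the values of the 7 genes, each with 1 cluster of its own. Settings that changed only the genes tested, the estimate of spread or the groups fitted could not move their log2 changes. Direction was fixed in advance there, so the 487 are not separate checks. Itgae and Itgal kept every call, as did Ccr9 and Gpr15 for their rises in CD4 cells, Ccr9 in CD8 cells, Itga4 in CD4 cells and Itgb1 in CD8 cells. With 1 array left out, the number of the 7 genes called between the Foxp3-positive groups ran from 3 to 5, between the controls from 2 to 4, and in CD8 cells from 4 to 7. Groups share replicate letters. Deviations of same-letter arrays from their group means correlated at -0.10 to 0.14, above 0.1 in 2 of 12 pairs. In 7 of the 12 the array with the same letter gave the highest correlation. With 3 arrays per group these values cannot settle whether the letters pair the samples. With the replicate block 6 of the 7 passed in CD8 cells, Itga4 with an adjusted p of 0.0222, and the block changed no other call among them. Testing all clusters, which adds 12185 features, took Itgb7 in CD8 cells to 0.0533, Itga4 in the interaction to 0.0636 and Ccr9 between the Foxp3-positive groups to 0.0505. Quantile normalization took Itga4 in the interaction to 0.0507, and fitting only the groups compared took Ccr9 to 0.0681 and Itgb1 between the controls to 0.0509. The cause was not tested. For 32 related and check genes, 1403 refits kept direction and call, 45 lost a call, 31 gained one and 22 changed sign without a call. No called change turned its sign, but settings that left log2 changes unmoved could not turn one. Ahr in CD4 cells passed under 5 of 14 alternatives, with adjusted p from 0.0243 to 0.0486 in those 5, the last with the replicate block. Signal over background could not be judged from these values.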
